A study of Mus musculus with 5 samples.

Results

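The genes described here are the 5 NF-kB subunits Nfkb1, Nfkb2, Rel, Rela and Relb, the inhibitor genes Nfkbia, Nfkbie and Nfkbiz, and the feedback genes Tnfaip3 and Traf1. They were selected by gene symbol from the deposited table of normalized counts, where all 10 symbols were found among 27526 genes. RNA had been sequenced from mouse cells that the labels describe as Kit-positive leukaemia stem cells driven by AML1-ETO9a, a shortened form of the RUNX1-RUNX1T1 fusion oncoprotein. All 5 libraries carry this label, which the levels of Runx1t1 and Kit given below do not match in every library. What separates the groups is the genotype label at Plcg1, the gene of phospholipase C-gamma-1, a signalling enzyme that acts below surface receptors. The 2 libraries labelled Plcg1 +/+ are called wild-type 1 and wild-type 3, and the 3 labelled Plcg1 -/-, by conditional deletion, are called deleted 2, deleted 4 and deleted 6. The sources used here do not give the Cre line or its promoter, the strain and age of the mice, or the way the fusion was introduced. Whether each library came from its own mouse is not labelled either. The p-values therefore cover the spread between libraries, which may be technical for any that share a mouse.

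NF-kB is a family of dimeric transcription factors. In a resting cell the dimers of RelA, c-Rel and p50 (made from the Nfkb1 product) are held in the cytoplasm by IkB proteins such as IkB-alpha, the product of Nfkbia. Signals from Toll-like, interleukin-1 and TNF receptors, or through the CARD-BCL10-MALT1 complex below protein kinase C, activate the IKK complex, which marks IkB for destruction. A slower branch, through the kinase NIK, processes the Nfkb2 product to p52, which pairs with RelB. Nfkbia, Nfkbie, Tnfaip3, Traf1, Nfkb2, Rel and Relb are themselves known NF-kB target genes, so their transcripts are often read as an output of the pathway as well as its parts.

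Gene counts per library ran from 37306507 to 57133771. Plcg1 itself did not separate the labels: wild-type 1 and 3 had 22.1 and 34.0 CPM (counts set against the TMM-scaled total of the library), and deleted 2, 4 and 6 had 53.0, 26.9 and 37.1 CPM. Total counts per gene include exons outside a deleted stretch, so they do not check the deletion, and every direction below is drawn between labels. Runx1t1, the gene of the fusion partner, had 5 and 13 counts in the libraries labelled wild-type and 6035, 3921 and 598 in those labelled deleted. Kit, the receptor named in the label of the cells, stood at 26.8 and 32.1 CPM, then at 672, 304 and 3.08 CPM. The near absence of Runx1t1 reads from both libraries labelled wild-type and the low Kit level in deleted 6 do not match the labels as they stand. How reads of the introduced fusion would be counted at mouse Runx1t1 is not known here. The labels may need checking, and the reason for these levels was not tested. Deleted 6 stood apart. Its rank correlation with the other libraries over the tested genes was 0.870 to 0.922, against 0.950 to 0.988 for the other pairs. It had the highest Lyz2 (68117 CPM, against 7215 to 15417), the lowest Mpo (4.21 CPM, against 2706 to 5068) and 5375 counts of Xist, against 0 to 3. The Y-linked gene Ddx3y had 12 counts there, against 2811 to 4893, so these sex-linked genes set deleted 6 apart from every other library. The libraries therefore did not all come from the same mouse. This sex-linked difference lies within the deleted group, and the wild-type group shows none. The proliferation marker Mki67 stood at 7.76 CPM in deleted 6, against 165 to 272. The fold changes of the 10 genes are therefore also given without deleted 6. In bulk RNA, fewer cells of a type and less RNA per cell cannot be told apart.

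All 10 genes had at least 235 counts in every library and passed the filter on low counts. Of the 10, 7 stood higher in every library labelled deleted than in both labelled wild-type, 2 stood lower in every one, and Nfkbiz overlapped. Among all 16120 tested genes 22.4% lay wholly above and 23.7% wholly below, 46.1% in either direction. The median log2 fold change (deleted minus wild-type) of the 10 genes was 0.60, beside 0.01 over all tested genes. It was 0.47 without deleted 6, beside -0.01. None of the 10 passed edgeR's quasi-likelihood test over all 5 libraries at an adjusted p (Benjamini-Hochberg, over all genes) under 0.05, and neither did any other gene (0% of 16120). At an unadjusted p under 0.05 that fit held 4 of the 10 on the higher side, Nfkb2, Relb, Tnfaip3 and Traf1, beside 9.44% of all tested genes, and 0 on the lower side, beside 5.42%. DESeq2 called 2 of the 10 higher over the 5 libraries, Tnfaip3 and Traf1, and none lower (backgrounds of 4.53% higher and 2.14% lower). The limma-voom test with sample quality weights called those and Nfkb2 and Relb higher, again with none lower (7.63% and 5.87%). EdgeR without the filter on low counts called Traf1 alone among the 10 (0.539% and 0.38%). Without deleted 6, edgeR called Tnfaip3 and Traf1 higher and none of the 10 lower, with backgrounds of 7.89% and 5.07%. So did limma-voom (7.53% and 4.99%), while DESeq2 called Relb as well (9.86% and 6.53%).

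**Figure D1:**
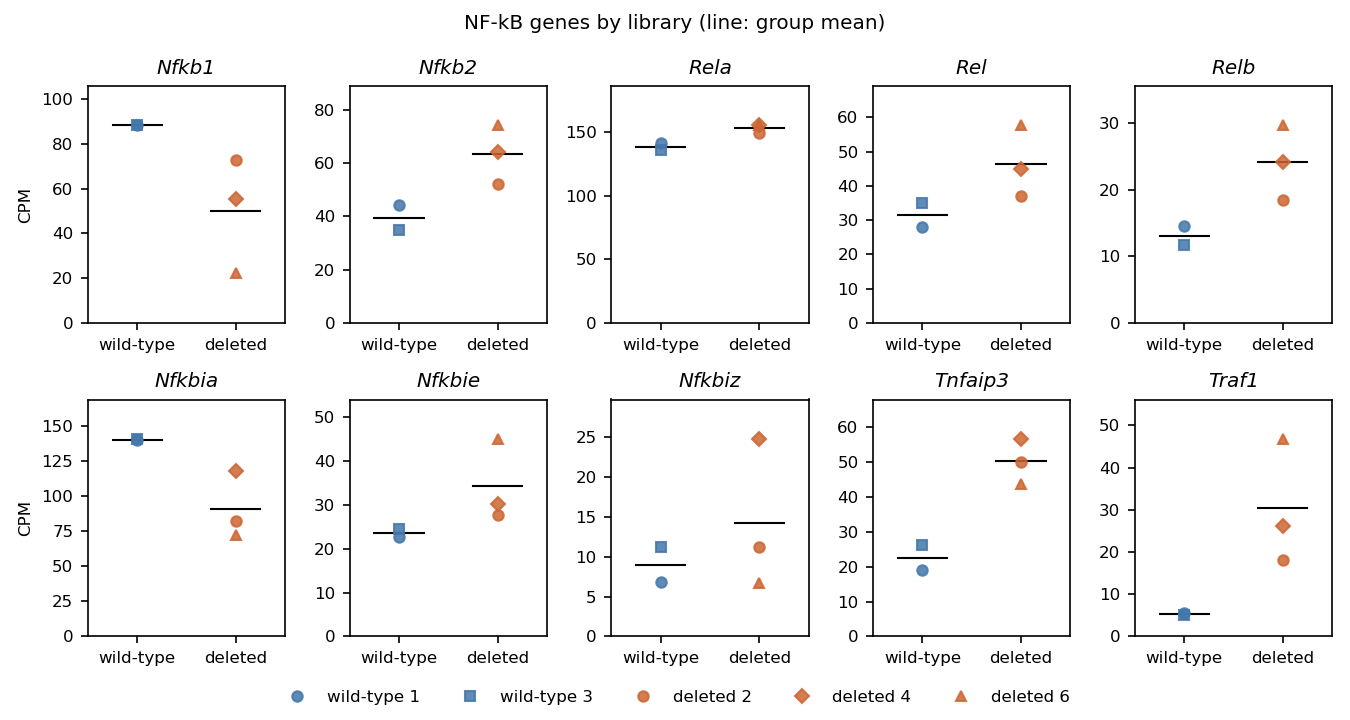
CPM of each of the 10 genes (1 panel per gene, linear axis from 0) in the 5 libraries, with a line at each group's mean. Points of Traf1 and Tnfaip3 in the libraries labelled deleted lie well above both wild-type points, those of Nfkb1 and Nfkbia lie below, and those of Nfkbiz overlap.

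The promoters are shown first because several of these genes are known to be controlled by the factors they encode. RefSeq promoter windows (build GRCm38.p6, the mm10 assembly; 250 bases before to 50 after a start site, 300 bases in all) were found for 7 of the 10 genes, in 10 windows. Nfkb1, Nfkbiz and Relb had no entry. Windows were searched on both strands for the 10-letter NF-kappaB consensus. At least 1 match was present for 5 of the 7 genes (71.4%), namely Nfkb2, Rel, Nfkbia, Nfkbie and Tnfaip3. Matches were present for 1388 of the 27025 genes in the table (5.14%) and in 1480 of its 32851 windows (4.51%). Most of the 10 genes are known NF-kB targets, so a share above that of all genes was likely beforehand. Nfkb2 also had several windows in which to match. The Rela and Traf1 windows held none. The stretches below run 5′ to 3′ on the strand of the gene, with bases that match the consensus on either strand in capitals. Nfkb2 is shown for 29 bases of chr19:46304693-46304721, Rel for chr11:23770970-23771099, Nfkbia for chr12:55492648-55492777, Nfkbie for chr17:45555570-45555699 and Tnfaip3 for chr10:19015411-19015540. Traf1 (chr2:34961773-34961902) is shown because its level differed most while its window held no match.
Nfkb2: gtcacGGGAATTCCCCccctcggggggcc
Rel: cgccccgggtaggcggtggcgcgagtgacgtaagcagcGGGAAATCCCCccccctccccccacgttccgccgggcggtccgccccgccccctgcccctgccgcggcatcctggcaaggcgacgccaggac
Nfkbia: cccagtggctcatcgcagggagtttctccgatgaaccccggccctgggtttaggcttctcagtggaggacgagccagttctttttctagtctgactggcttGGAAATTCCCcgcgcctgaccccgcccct
Nfkbie: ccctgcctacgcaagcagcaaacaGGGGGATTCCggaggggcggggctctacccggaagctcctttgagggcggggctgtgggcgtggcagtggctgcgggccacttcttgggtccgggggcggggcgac
Tnfaip3: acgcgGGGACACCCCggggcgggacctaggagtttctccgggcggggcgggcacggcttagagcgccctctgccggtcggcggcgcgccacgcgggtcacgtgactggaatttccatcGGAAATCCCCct
Traf1: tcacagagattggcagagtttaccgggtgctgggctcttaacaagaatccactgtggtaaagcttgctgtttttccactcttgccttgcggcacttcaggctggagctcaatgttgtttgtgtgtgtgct

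In Nfkb2 and in Rel, matches on the opposite strands overlapped each other, which is why the capitals run past 10 letters. The Nfkb2 run begins 39 bases before its most upstream RefSeq start, within an exon of another GENCODE transcript, and a further match begins 11 bases before that start. Its next RefSeq start had matches beginning 236 bases before and 11 bases after it, and the most downstream start had a match beginning 225 bases before it. The Rel run begins 92 bases before the start site. In Nfkbia the match lies on the opposite strand and begins 29 bases before the start. The Nfkbie match begins 106 bases before the start, and the Tnfaip3 matches begin 125 and 12 bases before its upstream start. The window of the other Tnfaip3 start held no match. Of the 5 genes with a match, 4 stood wholly above the wild-type libraries and Nfkbia wholly below. Rela and Traf1, without a match, stood wholly above. Over all tested genes, whatever their promoter, 22.4% stood wholly above and 23.7% wholly below. A match is a string of letters and no evidence of binding, and no match says only that the letters are not in this window.

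**Figure D2:**
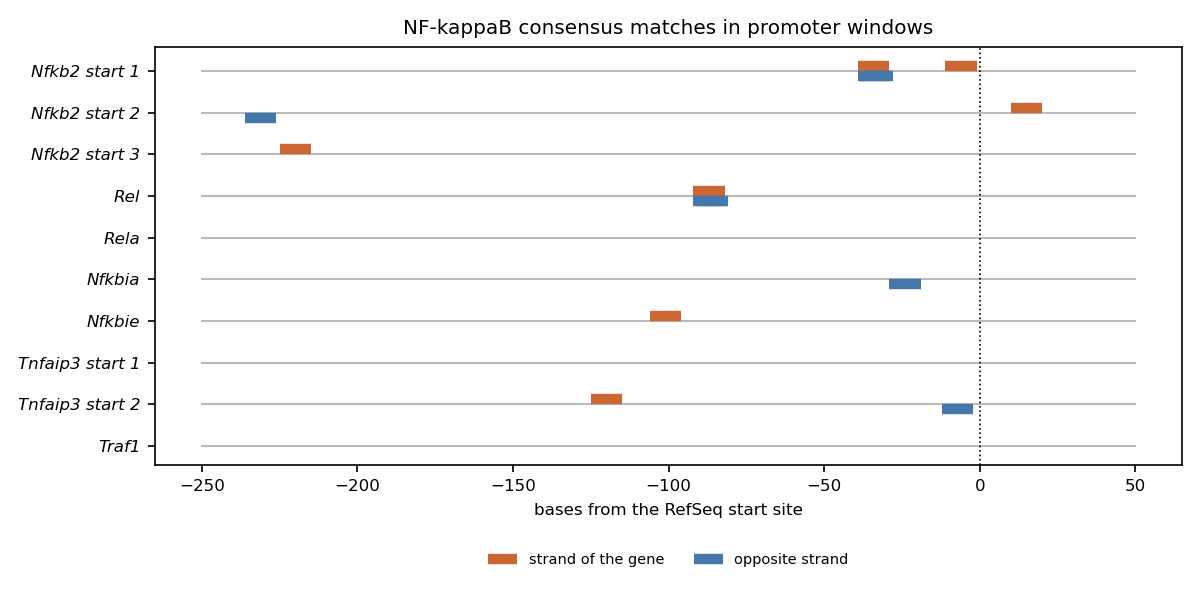
Consensus matches in the 10 RefSeq windows of 7 genes, as bases from the start site (x axis, dotted line at the start), with boxes above the line for the strand of the gene and below it for the opposite strand. Boxes lie within 125 bases before the start in Rel, Nfkbia, Nfkbie, the first Nfkb2 window and the second Tnfaip3 window, while Rela, Traf1 and the first Tnfaip3 window hold none.

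Among the subunits, Rela (ENSMUSG00000024927.7, chr19:5637483-5648130, plus strand) varied least. It encodes p65, the transactivating partner of most canonical dimers, and measured 141 CPM in wild-type 1, 136 CPM in wild-type 3, 149 CPM in deleted 2 and 155 CPM in both deleted 4 and deleted 6. The 3 libraries labelled deleted were above both others by a margin small beside the level itself. Its log2 fold change was 0.15 ± 0.16 (SE; 95% interval -0.25 to 0.55), with an edgeR adjusted p of 0.641, and 0.15 ± 0.12 without deleted 6 (adjusted p = 0.493). The highest library was 1.14-fold the lowest.

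Rel (ENSMUSG00000020275.9, chr11:23736847-23770970, minus strand) encodes c-Rel, a subunit best known from lymphoid and myeloid cells. It had 28.1 CPM in wild-type 1 and 35.1 CPM in wild-type 3, against 36.9 CPM in deleted 2, 44.8 CPM in deleted 4 and 57.6 CPM in deleted 6. Deleted 2 was barely above wild-type 3, and deleted 6 was highest. EdgeR put the log2 fold change at 0.56 ± 0.26 (95% interval -0.11 to 1.22; adjusted p = 0.382). Without deleted 6 it was 0.38 ± 0.18 (adjusted p = 0.227).

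Over the 5 libraries the subunit genes of the slower branch had larger fitted fold changes than Rela and Rel, with intervals that overlapped that of Rel. Leaving out wild-type 3 put Nfkb2 at 0.52 and Relb at 0.73 on the log2 scale, beside 0.73 for Rel. Differences between these genes were not tested. Relb (ENSMUSG00000002983.15, chr7:19606217-19629438, minus strand) had 14.5 CPM in wild-type 1 and 11.7 CPM in wild-type 3, against 18.5 CPM in deleted 2, 24.1 CPM in deleted 4 and 29.6 CPM in deleted 6. All 3 lay above both wild-type libraries, deleted 6 the farthest. The mean was 13.1 ± 2.01 CPM (SD, n = 2) against 24.1 ± 5.57 CPM (SD, n = 3). A log2 fold change of 0.88 ± 0.29 (95% interval 0.15 to 1.61; edgeR adjusted p = 0.286) over 5 libraries became 0.71 ± 0.22 without deleted 6 (adjusted p = 0.0821). It passed in limma-voom over the 5 libraries (adjusted p = 0.0405) and in DESeq2 without deleted 6 (adjusted p = 0.0278).

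Nfkb2 (ENSMUSG00000025225.13, chr19:46304320-46312385, plus strand), which encodes the p100 precursor of p52, had 44.2 CPM in wild-type 1 and 34.8 CPM in wild-type 3. Deleted 2 had 52.1 CPM, deleted 4 had 64.0 CPM and deleted 6 had 74.1 CPM, again without overlap and with deleted 6 highest. A log2 fold change of 0.68 ± 0.24 (95% interval 0.08 to 1.28; edgeR adjusted p = 0.304) over 5 libraries became 0.57 ± 0.18 without deleted 6 (adjusted p = 0.0941). Among the tests run it passed in limma-voom over the 5 libraries alone (adjusted p = 0.0453). Psd and AC114539.1 overlap Nfkb2 on the opposite strand, and the kit did not mark strand, so reads of these genes cannot be told apart where they overlap. The deposited counts keep ambiguous reads in a row of their own (2.36% to 2.78% per library), so such reads may be missing from Nfkb2.

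Nfkb1 (ENSMUSG00000028163.16, chr3:135584655-135691547, minus strand) went the other way. This gene of the p105 precursor of p50 had 88.2 CPM in wild-type 1 and again in wild-type 3, against 72.6 CPM in deleted 2, 55.3 CPM in deleted 4 and 22.5 CPM in deleted 6. All 3 lay below, and deleted 6 was at the lowest level by a wide margin. Its log2 fold change was -0.81 ± 0.49 (95% interval -2.05 to 0.42; edgeR adjusted p = 0.461). Without deleted 6 it was -0.45 ± 0.16 (adjusted p = 0.127), so that library alone moved the estimate by over 1.5 times. Gm43430 overlaps Nfkb1 on the same strand.

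**Figure D3:**
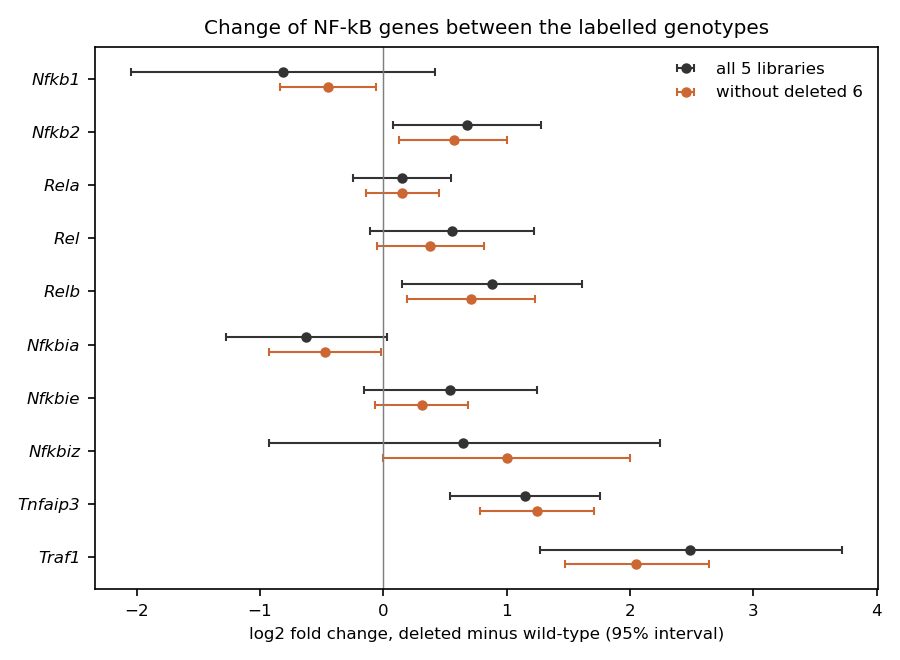
Log2 fold change of each gene, deleted minus wild-type, with its 95% interval (x axis), from the edgeR fit of all 5 libraries and from the fit without deleted 6. Traf1, Tnfaip3, Relb and Nfkb2 lie to the right of 0 with both intervals clear of it. The Nfkb1 interval narrows from -2.05 to 0.42 to -0.84 to -0.06 when deleted 6 is left out. Each interval is for its gene alone, without adjustment for the number of genes tested.

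Levels of different genes were compared as CPM per kilobase of the union of a gene's exons. On this scale Rela made up 60.2% to 66.2% of the summed level of the 5 subunits in every library. The Nfkb1 share was 10.4% and 10.9% in wild-type 1 and 3, and 7.95%, 5.63% and 2.23% in deleted 2, 4 and 6. The Nfkb2 share was 13.7% and 11.4%, then 15.0%, 17.2% and 19.3%. The Relb share was 5.32% and 4.49%, then 6.28%, 7.63% and 9.08%. Thus the order of Nfkb1 and Nfkb2 on this scale was the same in all libraries, with a gap that was small in the libraries labelled wild-type and wide in deleted 6. The per-length ratio of Nfkb2 to Nfkb1 was 1.32 and 1.04 in wild-type 1 and 3, and 1.89, 3.05 and 8.65 in deleted 2, 4 and 6. These shares depend on the length used, because the exon union of Nfkb1 spans 12061 bases and its longest coding transcript 4117. With the latter, a length added after the data were seen, the ratio was 0.536 and 0.423, then 0.768, 1.24 and 3.52. A change of length cannot alter the order of the libraries, but Nfkb1 then lay above Nfkb2 in both libraries labelled wild-type and in deleted 2. Ratios were not tested.

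Nfkbia (ENSMUSG00000021025.7, chr12:55489410-55492647, minus strand) was the other gene that stood lower in every library labelled deleted. Its product IkB-alpha is resynthesised after each round of NF-kB activity and returns the dimers to the cytoplasm. It had 139.5 CPM in wild-type 1 and 140.5 CPM in wild-type 3, against 81.8 CPM in deleted 2, 118 CPM in deleted 4 and 72.0 CPM in deleted 6. The 2 wild-type values were nearly equal, and deleted 4 lay closest to them. The mean was 140.0 ± 0.678 CPM (SD, n = 2) against 90.6 ± 24.2 CPM (SD, n = 3). EdgeR put the log2 fold change at -0.63 ± 0.26 (95% interval -1.28 to 0.03; adjusted p = 0.345). Without deleted 6 it was -0.47 ± 0.19 (adjusted p = 0.159). Per kilobase, Nfkbia had the highest median level of the 10 genes under both lengths, with Rela next. The per-length ratio of Nfkbia to Rela was 1.89 and 1.97 in the libraries labelled wild-type and 1.05, 1.45 and 0.885 in those labelled deleted, so Rela exceeded its inhibitor on this scale in deleted 6. With the longest coding transcript as the length it also did so in deleted 2 (ratio 0.944).

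Nfkbie (ENSMUSG00000023947.7, chr17:45555703-45563169, plus strand), the gene of IkB-epsilon, a slower feedback inhibitor, lay on the opposite side of the wild-type libraries from Nfkbia. It had 22.6 CPM in wild-type 1 and 24.4 CPM in wild-type 3, against 27.7 CPM in deleted 2, 30.2 CPM in deleted 4 and 45.0 CPM in deleted 6. Deleted 2 and 4 were close to the wild-type values, and deleted 6 was well above them. EdgeR put the log2 fold change at 0.54 ± 0.28 (95% interval -0.16 to 1.25; adjusted p = 0.406). Without deleted 6 it was 0.31 ± 0.16 (adjusted p = 0.257), which is less than the value over 5 libraries by over 1.5 times. The per-length ratio of Nfkbie to Rela was 0.162 and 0.181, then 0.187, 0.196 and 0.292.

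Nfkbiz (ENSMUSG00000035356.15, chr16:55811375-55838899, minus strand) encodes IkB-zeta, a nuclear IkB protein that helps NF-kB induce genes such as Il6. It had 6.82 CPM in wild-type 1 and 11.2 CPM in wild-type 3, against 11.2 CPM in deleted 2, 24.8 CPM in deleted 4 and 6.74 CPM in deleted 6. The groups overlapped: deleted 4 was high, and deleted 6 lay with wild-type 1. Its log2 fold change was 0.65 ± 0.62 (95% interval -0.93 to 2.24; edgeR adjusted p = 0.608). It was -0.01 without deleted 4, and 1.00 ± 0.42 without deleted 6 (adjusted p = 0.173).

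**Figure D4:**
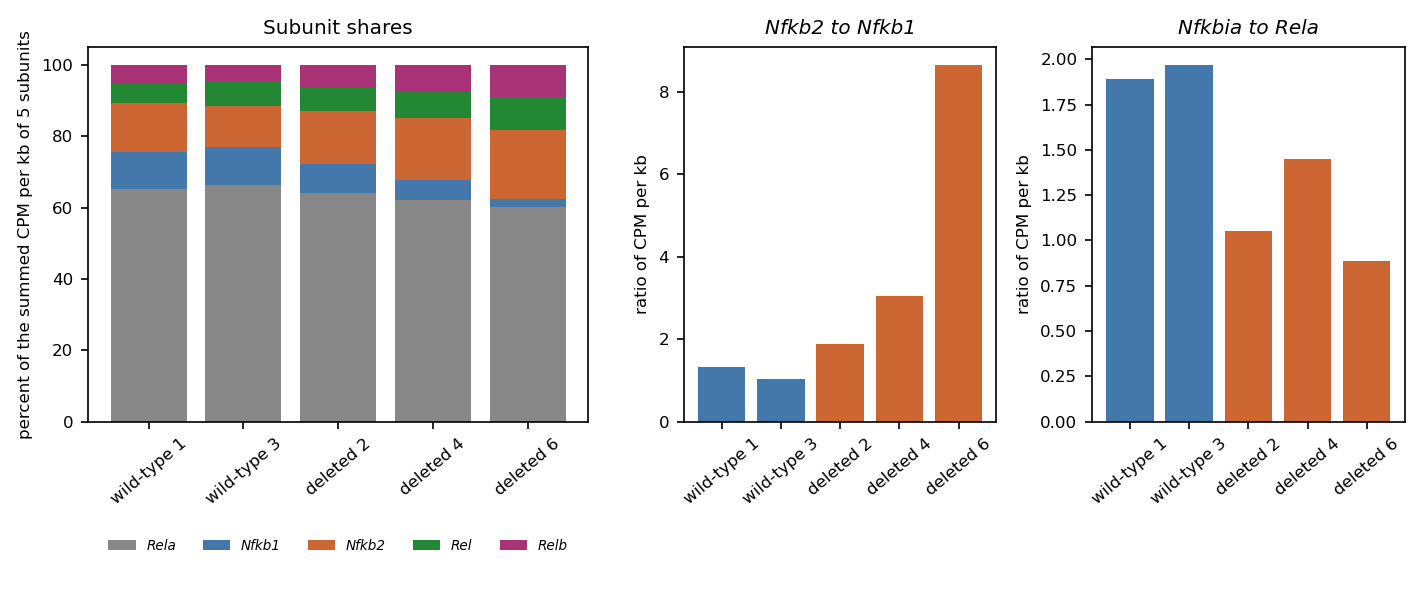
Left, percent of the summed CPM per kilobase of the 5 subunit genes in each library; right, per-length ratios between genes in each library. Rela holds 60.2% to 66.2% of the sum throughout, the Nfkb1 share is smallest in deleted 6 at 2.23%, and the ratio of Nfkb2 to Nfkb1 reaches 8.65 there.

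Over the 5 libraries the feedback genes Traf1 and Tnfaip3 had the highest fitted fold changes of the 10. Leaving out wild-type 1 put Relb at 1.04 on the log2 scale, above Tnfaip3 at 0.93. Traf1 (ENSMUSG00000026875.13, chr2:34941750-34961772, minus strand) encodes an adaptor that binds TRAF2 at TNF-family receptors. It had 5.66 CPM in wild-type 1 and 5.12 CPM in wild-type 3, against 18.2 CPM in deleted 2, 26.1 CPM in deleted 4 and 46.8 CPM in deleted 6. Each library labelled deleted lay far above the 2 wild-type libraries, which were almost level. The mean was 5.39 ± 0.388 CPM (SD, n = 2) against 30.4 ± 14.8 CPM (SD, n = 3). The fitted change was 5.64-fold, a log2 fold change of 2.49 ± 0.48 (95% interval 1.27 to 3.72; edgeR adjusted p = 0.166). Without deleted 6 Traf1 rose 4.15-fold (log2 2.05 ± 0.24; edgeR adjusted p = 0.00413), and both other tests called it with or without that library. Per kilobase of exon union Traf1 had the lowest median of the 10 genes, from 0.580 to 0.642 CPM per kilobase under the wild-type label and from 2.06 to 5.31 under the deleted one. With the longest coding transcript as the length it ranked 8 of 10, and Nfkbiz was lowest.

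Tnfaip3 (ENSMUSG00000019850.10, chr10:19000910-19015657, minus strand) encodes A20, a ubiquitin-editing enzyme that shuts off signalling to IKK. It had 19.0 CPM in wild-type 1 and 26.2 CPM in wild-type 3, against 50.1 CPM in deleted 2, 56.6 CPM in deleted 4 and 43.8 CPM in deleted 6. All 3 were clearly above both wild-type libraries, and here deleted 6 was the lowest of the 3. The mean was 22.6 ± 5.11 CPM (SD, n = 2) against 50.2 ± 6.37 CPM (SD, n = 3). The fitted change was 2.22-fold, a log2 fold change of 1.15 ± 0.24 (95% interval 0.54 to 1.76; edgeR adjusted p = 0.182). Without deleted 6 Tnfaip3 rose 2.37-fold (log2 1.25 ± 0.20; edgeR adjusted p = 0.0106), and over the 5 libraries DESeq2 gave an adjusted p of 0.00844.

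The file names place wild-type 1 on lane 3, wild-type 3, deleted 2 and deleted 4 on lane 4, and deleted 6 on lane 5. Within lane 4 alone, the 1 wild-type library is assumed to vary like the deleted ones. There the log2 fold change was 2.13 for Traf1 (edgeR adjusted p = 0.0675) and 1.03 for Tnfaip3 (adjusted p = 0.082). Relb was at 0.88, Nfkb2 at 0.75, Nfkbiz at 0.69, Nfkbie at 0.25, Rel at 0.23, Rela at 0.17, Nfkb1 at -0.45 and Nfkbia at -0.48. None of the 10 was called within the lane (background 1.26% higher, 0.779% lower), and each had the sign it had over the 5 libraries.

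A further 111 genes of the pathway were taken from 7 lists by role, and 109 passed the filter. None was called by edgeR over the 5 libraries. At an unadjusted p under 0.05 there were 23 higher and 2 lower, beside 9.44% and 5.42% of all tested genes. Of the 109, 42 lay wholly above, 14 wholly below and 53 overlapped, and the shares over all tested genes were 22.4% above and 23.7% below, 46.1% in either direction. The median log2 fold change was 0.39. Without deleted 6, edgeR called 17 higher and 1 lower, beside the 7.89% and 5.07% of all genes given above. Over the 5 libraries DESeq2 called 15 higher and 0 lower, beside 4.53% and 2.14% of all genes. The limma-voom test called 20 higher and 2 lower, beside 7.63% and 5.87%.

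**Figure D5:**
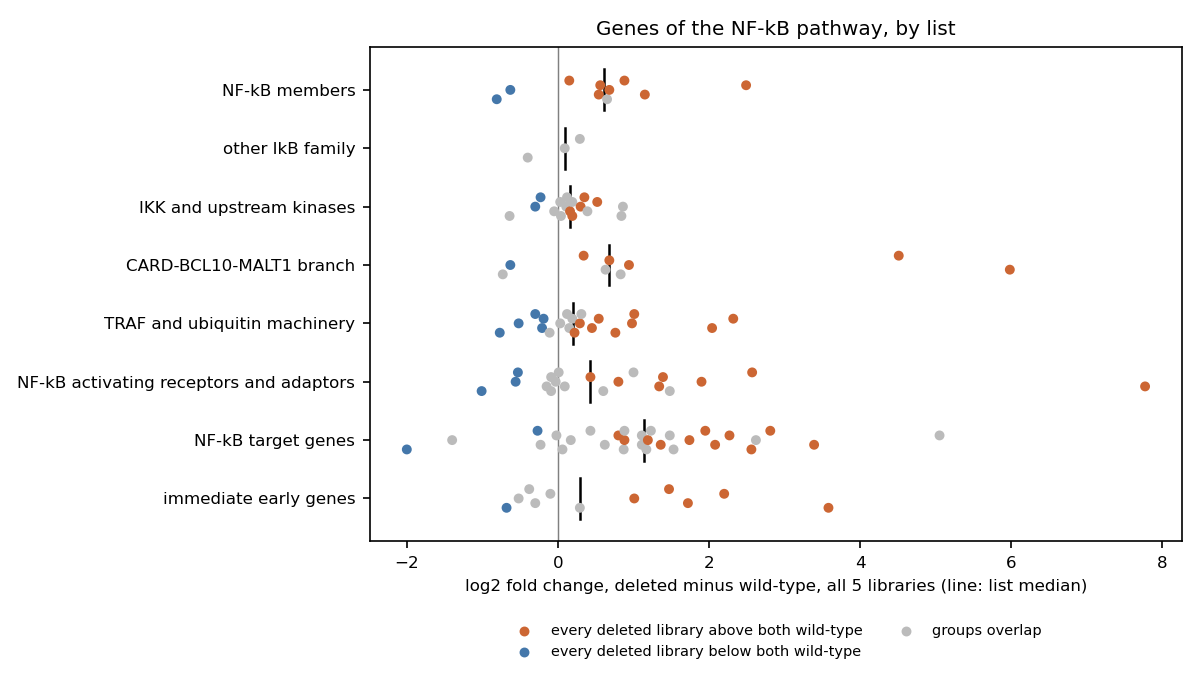
Log2 fold change over all 5 libraries (x axis) of each tested gene in the 10 genes and the 7 pathway lists (rows), coloured by whether the libraries of the groups overlap, with a line at each list's median. The target list has the highest median at 1.14, and the other IkB genes lie near 0 with overlapping groups.

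The remaining IkB family genes, Nfkbib, Nfkbid and Bcl3, overlapped between the labels in all 3 cases, with a median of 0.09. Nfkbid, the gene of the nuclear protein IkB-NS, had 22.1 CPM in wild-type 1 and 23.8 CPM in wild-type 3, against 28.9 CPM in deleted 2, 34.4 CPM in deleted 4 and 20.6 CPM in deleted 6. Bcl3, whose product binds p50 and p52 dimers in the nucleus, stood at 45.1 and 41.1, then 35.8, 45.3 and 16.8 CPM. Deleted 6 was the lowest library for both.

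Of 17 IKK and upstream kinase genes, 5 lay wholly above and 2 wholly below, 10 overlapped, and the median was 0.16. That is a smaller share without overlap than the 46.1% of all tested genes. None was called by edgeR, DESeq2 or limma-voom over the 5 libraries, or by edgeR without deleted 6. Ikbkg, the gene of the regulatory IKK subunit NEMO, had 65.7 CPM in wild-type 1 and 71.1 CPM in wild-type 3, against 92.1 CPM in deleted 2, 81.6 CPM in deleted 4 and 121 CPM in deleted 6 (log2 fold change 0.52; edgeR adjusted p = 0.36). Tbk1, an IKK-related kinase, stood at 112 and 111, then 130.4, 149.9 and 147 CPM (0.35; adjusted p = 0.381). Irak1, a kinase below the interleukin-1 and Toll-like receptors, stood at 198 and 210.2, then 179, 166 and 151 CPM (-0.30; adjusted p = 0.448). Irak4, also wholly below, stood at 55.5 and 60.1, then 49.1, 48.9 and 49.6 CPM (-0.23, edgeR adjusted p = 0.498).

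The CARD-BCL10-MALT1 branch links protein kinase C to IKK, and its 9 genes had a median of 0.68, with 5 wholly above, 1 wholly below and 3 overlapping. The shares over all tested genes were 22.4% above and 23.7% below. Without deleted 6 edgeR called 2 of the 9 higher, Card14 and Prkcq, and none lower, beside 7.89% and 5.07% of all genes. Card14, a CARD scaffold, had 0 CPM in wild-type 1 and 0.0901 CPM in wild-type 3, against 0.701, 0.698 and 2.08 CPM in deleted 2, 4 and 6, so it was low everywhere. Prkcq, the gene of protein kinase C-theta, had 0.121 and 0.0180 CPM, then 8.64, 4.11 and 0.136 CPM. Its high values were in deleted 2 and 4, while deleted 6 lay near wild-type 1. Bcl10, the central adaptor, stood at 63.4 and 64.8, then 79.1, 83.6 and 80.1 CPM. Malt1, the paracaspase, stood at 47.4 and 46.9, then 43.9, 52.6 and 154 CPM, with only deleted 6 high. Card9 stood at 36.5 and 44.5, then 31.0, 30.0 and 17.6 CPM (log2 fold change -0.63; edgeR adjusted p = 0.393). Card10 was low everywhere and overlapped, at 0.699 and 0.901, then 0.193, 0.736 and 0.520 CPM (-0.73, edgeR adjusted p = 0.586).

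Among 20 TRAF and ubiquitin genes 9 lay wholly above, 5 wholly below and 6 overlapped, with a median of 0.21. Beside these counts stand 22.4% above and 23.7% below over all tested genes. Tnip3, which encodes an A20-binding inhibitor of NF-kB, had 7.98 CPM in wild-type 1 and 8.45 CPM in wild-type 3, against 31.4 CPM in deleted 2, 53.8 CPM in deleted 4 and 38.3 CPM in deleted 6. All 3 lay far above, and without deleted 6 it rose by 2.39 ± 0.28 on the log2 scale (edgeR adjusted p = 0.00396). Traf5, an adaptor of TNF-family receptors, stood at 4.36 and 4.81, then 11.3, 10.4 and 34.7 CPM. Deleted 6 was far above the rest: the log2 fold change was 2.04 over the 5 libraries (edgeR adjusted p = 0.286), and without deleted 6 it rose by 1.26 ± 0.22 (adjusted p = 0.0165). Rbck1, a subunit of the linear ubiquitin ligase, stood at 199 and 214, then 170.3, 139 and 122 CPM (log2 fold change -0.52; edgeR adjusted p = 0.342). Tax1bp1, also wholly below, stood at 671 and 772, then 629, 569.5 and 561 CPM (-0.30, edgeR adjusted p = 0.518).

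Of 20 receptor and adaptor genes 19 were tested, of which 7 lay wholly above, 3 wholly below and 9 overlapped, with a median of 0.43. Over all tested genes 22.4% lay above and 23.7% below, 46.1% in either direction. Il1rl1, the interleukin-33 receptor ST2, had 0.651 CPM in wild-type 1 and 1.41 CPM in wild-type 3, against 480.1 CPM in deleted 2, 196 CPM in deleted 4 and 1.90 CPM in deleted 6. The high values were in deleted 2 and 4, and deleted 6 lay just above wild-type 3. Il1r1, the interleukin-1 receptor, stood at 1.66 and 3.71, then 24.8, 15.7 and 7.58 CPM, and rose by 2.91 ± 0.43 without deleted 6 (edgeR adjusted p = 0.00854). Tirap, an adaptor of Toll-like receptors, stood at 43.0 and 45.4, then 28.7, 30.0 and 33.4 CPM. It was the 1 gene of the 7 lists called lower without deleted 6 (log2 -0.58 ± 0.14; edgeR adjusted p = 0.0436). Tlr1, also wholly below, stood at 18.6 and 22.8, then 9.20, 15.1 and 6.49 CPM (log2 fold change -1.01, edgeR adjusted p = 0.34).

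The list of 30 NF-kB target genes outside the 10 had the highest median of the 7, at 1.14. Of these 30, 11 lay wholly above, 2 wholly below and 17 overlapped, beside 22.4% above, 23.7% below and 46.1% either way over all tested genes. Without deleted 6 the median was 0.89. There edgeR called 8 higher and none lower, beside 7.89% and 5.07% of all genes. The 8 were Ier3, Bcl2l1, Csf1, Plek, Il6, Ccl2, Ccr7 and Bcl2a1b. Csf1, the macrophage growth factor, had 14.7 CPM in wild-type 1 and 17.3 CPM in wild-type 3, against 77.8 CPM in deleted 2, 108 CPM in deleted 4 and 45.8 CPM in deleted 6. It lay above in all 3 and rose by 2.55 ± 0.21 on the log2 scale without deleted 6 (edgeR adjusted p = 0.00136). Plek, a protein kinase C substrate, stood at 195 and 212, then 420.0, 577 and 1049.7 CPM. Il6 stood at 0.241 and 0.234, then 17.2, 6.53 and 0.113 CPM, high in deleted 2 and 4 only. Vcam1, an adhesion molecule, stood at 3.81 and 5.48, then 0.508, 2.02 and 0.950 CPM (log2 fold change -2.00; edgeR adjusted p = 0.286). Il1b stood at 9.09 and 3.49, then 2.19, 4.45 and 0.497 CPM, with overlap.

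Consensus matches were present in the windows of 11 of the 23 target genes with an entry (47.8%) and of 6 of 17 TRAF and ubiquitin genes (35.3%). Matches were present for 1 of 13 kinase genes (7.69%). The target list was drawn up from known targets, so a high share there was likely beforehand. Over the 10 genes and the 7 lists together, 30 tested genes with a match had a median log2 fold change of 0.55, with 12 wholly above and 3 wholly below. The 62 tested genes without one had a median of 0.33, with 27 above and 9 below. The difference between genes with and without a match was not tested. Over all tested genes 22.4% lay wholly above and 23.7% wholly below.

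Markers of other cell types also differed between the libraries. For the counts of markers wholly above or wholly below, the shares over all tested genes were 22.4% and 23.7%. Summed levels of 15 monocyte and macrophage markers were 12030.3 and 11489 CPM in wild-type 1 and 3 and 8890.3, 18916 and 72482 CPM in deleted 2, 4 and 6. Lyz2 alone made up most of each sum, at 9657 and 8765, then 7215, 15417 and 68117 CPM. Of the 15, 2 lay wholly above (Adgre1 and Mrc1) and 4 wholly below (Ly6c2, Ccr2, Fcgr1 and Cx3cr1). The 14 neutrophil markers summed to 19384 and 21207, then 15469, 17775 and 1402 CPM, with 1 wholly above and 6 below. Mmp8, the 1 above, made up 1278 of the 1402 CPM in deleted 6. The 10 mast cell and basophil markers summed to 70.3 and 121, then 10614, 4835 and 33.7 CPM, with 3 wholly above and Mrgprb2 at 0 counts in wild-type 1, wild-type 3 and deleted 6. Prkcq, Il1rl1 and Il6 likewise were high in deleted 2 and 4 and not in deleted 6. Dendritic cell markers summed to 13.2 to 13.6 CPM in wild-type and 102 to 769 CPM in deleted libraries, of which Itgax alone made up 97.5 to 756, and Cd209a had 0 to 2 counts in every library. The B cell list reached 181 CPM in deleted 6, where Blnk alone stood at 180.5, while Pax5 had 0 to 2 counts in every library. T and NK cell markers summed to 2.96 to 4.52 CPM, with Cd3e, Cd3g and Ncr1 at 0 throughout. The part of these cell type differences in the NF-kB values was not tested.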

How the data were processed

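Poly(A)-primed cDNA was made from Trizol-extracted RNA with the SMART-Seq v4 kit and turned into Nextera XT libraries, per the labels' protocols, then sequenced as 50 bp single ends, as the series' design text states. The kits do not mark strand. Tools named per the submitters' processing notes are STAR, bcl2fastq 1.8.4 and DESeq2 1.12.4, with the mm10 genome. The authors deposited read counts for 46603 genes in each library, with 5 rows that name no gene, which were left out. Among these rows were no feature (5.89% to 8.09%), ambiguous (2.36% to 2.78%) and several places (13.0% to 15.1%). The authors' normalized signal equals the gene counts over 1 size factor per library and was used to find the members and their symbols.

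Libraries were grouped by the labelled genotype, 2 wild-type and 3 deleted. The main test was the quasi-likelihood F test of edgeR (edgeR 4.0.16, limma 3.58.1, R 4.3.3) on the 16120 genes that filterByExpr kept, with TMM scaling and 3 residual degrees of freedom. Calls are genes under 0.05 after Benjamini-Hochberg adjustment over all tested genes. For 2 against 3 libraries the smallest two-sided p of an exact permutation test is 0.1, and no such test was run. A count of 3 corresponds to 0.0526 to 0.0723 CPM, which covers counting error only. Locations and lengths are from GENCODE M21 on GRCm38, the mm10 build, and promoter sequences from RefSeq. Protein sequences were not analysed here.

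The members and lists were chosen with earlier results of these data known. Named pathway genes are, per list, up to 2 each way with the smallest unadjusted p, and up to 2 each way called without deleted 6. Bcl10, Malt1, the other called target genes and the genes used to describe the libraries were named after their values were seen. For Traf1, Nfkb1 and Nfkbiz, the 3 members whose libraries span most, the 3 nearest genes in profile are named too. Alternatives were DESeq2 1.42.0, limma-voom, RLE size factors, other filters, each library left out, lane 4 alone, and, added after seeing the data, DESeq2 and limma-voom without deleted 6 and another gene length.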

Additional observations from a re-analysis of the deposited data

How the results depend on the processing

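EdgeR's quasi-likelihood test of all 5 libraries called 0 genes higher and 0 lower. RLE factors and a stricter filter gave 0 as well. DESeq2 called 838 higher and 396 lower, limma-voom 1230 and 947, edgeR without a filter 163 and 115, and edgeR within lane 4 211 and 131. Leaving out single libraries gave 0 to 1245 higher and 0 to 800 lower, with calls only when deleted 6 was left out. Of the 10 NF-kB genes, DESeq2 called 2, limma-voom 4 and edgeR without a filter 1 (Traf1, adjusted p = 0.0422), and single libraries left out gave 0 to 2. After the data were seen, DESeq2 and limma-voom were also run without deleted 6 and called 3 and 2. Genes of the 7 pathway lists called higher numbered 15 in DESeq2, 20 in limma-voom, 2 without a filter, 6 in lane 4 and 0 to 17 with single libraries left out. Those called lower numbered 2 in limma-voom and 0 to 1 with single libraries left out.

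The log2 fold change of Nfkbiz was -0.01 without deleted 4, the 1 sign change among 110 values of the 10 genes, and lay between -0.01 and 1.06 over the libraries left out. Of the 110 values, 100 kept both their sign and their side of the threshold, and 9 newly passed it. Traf1 lay between 2.05 and 2.76 (adjusted p 0.000165 to 0.84) and Tnfaip3 between 0.93 and 1.40 (0.00844 to 0.84). None of 313 values of the 29 pathway genes named by the rule on smallest p and calls changed sign. Because that rule used the same counts, few sign changes were likely beforehand. Genes named after their values were seen, such as Malt1 and Bcl10, and the nearest genes in profile were not part of this check. The RLE factors moved the median of all genes by -0.005. No paired analysis was possible because the groups share no replicate number in the labels. Groups of 2 and 3 libraries limit the precision of every value here, and the labelled deletion could not be checked from total counts.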

Other observations

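The immediate early genes, which many signals switch on within minutes together with NF-kB targets, divided by gene. Of 12 listed genes 11 were tested, with 5 wholly above, 1 wholly below and 5 overlapping, and a median log2 fold change of 0.29. The shares over all tested genes were 22.4% above and 23.7% below. Without deleted 6 edgeR called Atf3, Egr2 and Jun higher and none lower, beside 7.89% and 5.07% of all genes. Egr2 had 8.70 CPM in wild-type 1 and 7.48 CPM in wild-type 3, against 29.3 CPM in deleted 2, 37.4 CPM in deleted 4 and 224 CPM in deleted 6. A log2 fold change of 3.58 over 5 libraries became 2.06 ± 0.20 without deleted 6 (edgeR adjusted p = 0.00228). Atf3, a stress-induced factor, stood at 47.5 and 49.9, then 109, 189 and 372 CPM. Jun, a part of the AP-1 factor, stood at 58.6 and 70.2, then 124, 180.4 and 333 CPM. Both lay above in every library labelled deleted and were highest in deleted 6. Fos, the usual partner of Jun, stood at 42.3 and 53.3, then 25.4, 51.0 and 23.6 CPM, with overlap. Ier2 stood at 82.6 and 97.8, then 76.6, 69.8 and 22.3 CPM, below in all 3 (log2 fold change -0.68; edgeR adjusted p = 0.547).

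The tested genes closest in profile to 3 NF-kB genes were found by the root mean square difference of log2(CPM + 0.5), centred over the 5 libraries. Closest to Traf1 were Mllt4 (0.0822), Cd274 (0.145) and Slc30a1 (0.149). Cd274, the gene of the checkpoint ligand PD-L1, had 83.6 CPM in wild-type 1 and 65.2 CPM in wild-type 3, against 207 CPM in deleted 2, 277 CPM in deleted 4 and 491 CPM in deleted 6. Closest to Nfkb1 were Xrcc6 (0.0379), Impa2 (0.0458) and Ppan (0.0522). Xrcc6, which encodes the Ku70 DNA repair protein, stood at 89.5 and 95.5, then 74.2, 59.3 and 23.3 CPM. Closest to Nfkbiz were Osbp2 (0.150), Ccl4 (0.196) and Spib (0.237). Ccl4, a chemokine gene, stood at 24.7 and 29.3, then 30.0, 69.6 and 24.6 CPM, with deleted 4 high as for Nfkbiz. These are likenesses over 5 libraries, searched for among all tested genes.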
